A study of Mus musculus with 12 samples.

Results

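Hearts of mice lacking the adenosine A2B receptor (A2BAR -/-) were compared with wild-type hearts after ischemic preconditioning (IP), on 3 arrays each, which are 6 of the 12 arrays of the study. The members were taken from the sample labels, as the knockout and wild-type groups marked IP120. All animals were male, aged 12 weeks and of the BL6/C57 strain. IP was a series of 4 occlusions of a coronary artery territory for 5 min, each followed by 5 min of flow, after which the heart was reperfused for 2 h and the area at risk of the left ventricle was frozen. The other 6 arrays are control hearts of the same genotypes, 3 each, which served for comparison and for the estimate of the spread. Of the wild-type mice the labels say in one place that they were purchased and in another that they were littermates of the knockouts, and of the control hearts that they were untreated and that they were sham operated. If the wild-type mice were purchased, a difference set by the receptor and a difference set by the source of the mice cannot be told apart. No label states that each array of a group is from its own animal, and the p-values then measure the spread between these samples only, which may be technical.

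The A2B receptor is a G protein-coupled receptor that raises cAMP when adenosine binds to it. Its affinity for adenosine is low compared with the other adenosine receptors, and extracellular adenosine accumulates when a tissue lacks oxygen. In IP, brief occlusions make the heart more resistant to a later long one, and adenosine receptors are among the known mediators. Known targets of cAMP signaling include the transcription factors Crem and Nr4a1 and the clock gene Per1.

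The arrays gave 1 signal per probe set on a linear scale, and differences are given on the scale log2(signal + 16), knockout minus wild type, with the standard error (SE) of the limma fit and with p-values adjusted by the Benjamini-Hochberg method across the 14044 genes tested. The threshold was an adjusted p of 0.05. Median signals of the 6 IP arrays were between 67.3 and 77.0 units, and rank correlations within the groups of the study were between 0.908 and 0.919. The hearts carried their labelled tissue: the cardiac troponin T gene Tnnt2 read from 54380 to 59200 units on the knockout IP arrays and from 64910 to 68430 units on the wild-type IP arrays. The wild-type IP arrays differed from the knockout IP arrays in measures that no gene list defines. Their total signal was higher, between 37287858 and 37455385 units against 35761072 to 36432444. The log2 ratio of the 3′ to the 5′ control probe set of beta-actin, which rises when RNA is shortened, was 1.39, 1.22 and 1.29 on the wild-type IP arrays and 0.88, 0.95 and 0.84 on the knockout IP arrays, with no overlap. On the control arrays it was between 1.04 and 1.31 in wild type and between 0.88 and 1.40 in the knockout, which overlap.

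Of 14044 genes, 16 (0.114%) differed between knockout and wild-type IP hearts by limma, 12 lower (0.0854%) and 4 higher (0.0285%) in the knockout. The 12 lower genes were Pttg1, Cyfip2, 2610507I01Rik, Rab4a, Tmem250-ps, Ramp1, Tmx1, Sugp1, Mrpl55, Mylk3, Nnt and Klhdc3. The 4 higher genes were Myot, Mal, Lgals9 and Tvp23b. In each of the 16 genes the 3 knockout and the 3 wild-type IP arrays did not overlap, as was the case for 19.6% of all genes. At an unadjusted p under 0.05, 1789 genes (12.7%) differed, 708 higher and 1081 lower. With quantile normalization 12 genes passed (0.0854%), 2 higher and 10 lower. With median centring of each array 17 passed (0.121%), 11 higher and 6 lower, so that the balance of higher and lower genes depends on the scaling. The median difference over all genes was −0.03 without normalization between arrays, −0.01 with quantile normalization and 0.06 with median centring. With the beta-actin ratio as a covariate 3 genes passed, Pttg1, Cyfip2 and Rab4a. Since this ratio did not overlap between the knockout and wild-type IP arrays, its part and the part of the genotype cannot be fully told apart. Why a call was lost or a median turned with this covariate was not tested. In the plot of differences against p-values Pttg1, Cyfip2, Rab4a and 2610507I01Rik lie apart from the rest. The other genes that passed adjoin those that did not. The unadjusted limma p was 5.63e-05 for Mylk3, the last to pass, and 6.18e-05 for Mest, which did not pass (adjusted p = 0.0511).

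**Figure D1:**
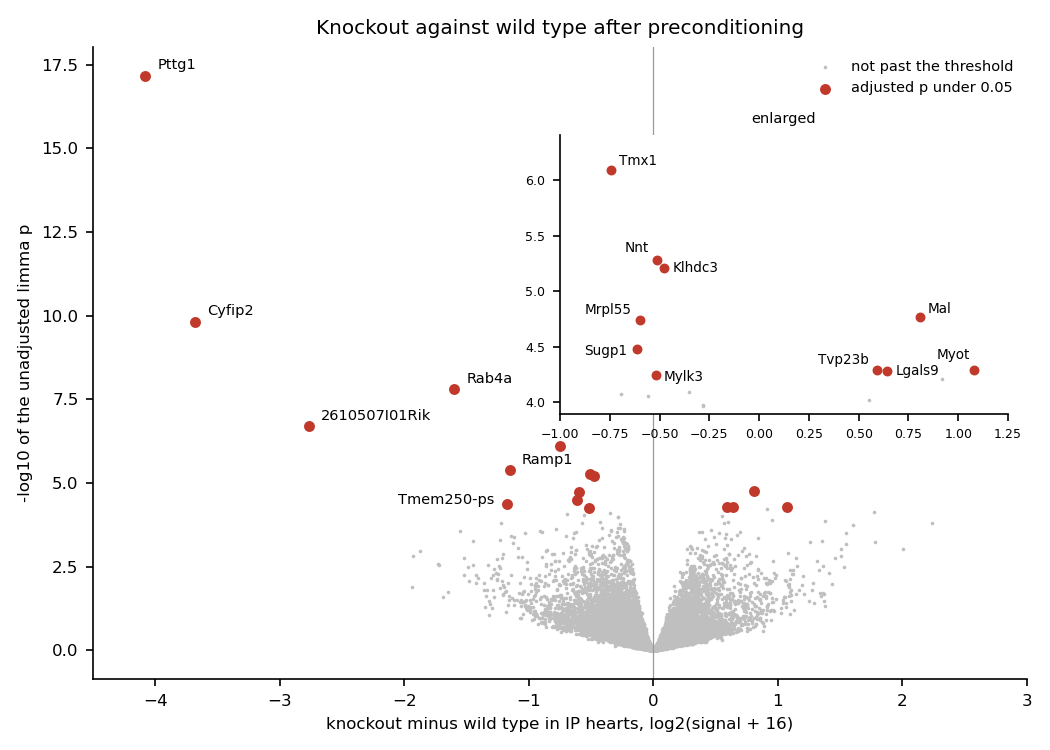
Differences between knockout and wild-type IP hearts (x axis, log2(signal + 16)) against the −log10 of the unadjusted limma p (y axis) for 14044 genes. The 16 genes past the threshold are red and named, with the crowded range enlarged in the inset. Pttg1 at −4.09 and Cyfip2 at −3.68 lie farthest from 0.

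Of the 16 genes, 5 passed also between the genotypes in control hearts, where 5 genes passed in all (0.0356%), each of them lower in the knockout. They were Pttg1, Cyfip2, Rab4a, 2610507I01Rik and Mrpl55. Control and IP hearts share no array. Pttg1 encodes securin, which holds back separase until sister chromatids part. Its signal was 1455, 1190.4 and 1272 units on the knockout IP arrays and 21801, 21818 and 23503 units on the wild-type IP arrays. On every knockout array it was far below every wild-type array, with a difference of −4.09 ± 0.08 in IP hearts (adjusted p = 9.51e-14) and −3.81 in control hearts (adjusted p = 2.65e-13). The gene has 2 further probe sets, which read 323 to 525 against 5657 to 6555 units, and 3.3 to 40.9 against 96.8 to 113.1 units, in knockout and wild-type IP hearts. All 3 probe sets were thus lower in the knockout.

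Cyfip2 encodes a subunit of the WAVE complex, which controls actin branching. On the knockout IP arrays it read 232, 401 and 437 units, and on the wild-type IP arrays 4604, 4754 and 4494 units. The groups lay far apart, 12.8-fold (−3.68 ± 0.24, adjusted p = 1.05e-06), and in control hearts the difference was −3.21 (adjusted p = 6.97e-06). Of its 3 other probe sets, 1 bright set read 165 to 206 units in knockout and 1750 to 2141 units in wild-type IP hearts. A dim set read 4.7 to 8.3 against 22.0 to 73.9 units. The last set was dimmer in wild type, with 5.1 to 69.9 units in knockout and 2.0 to 3.2 units in wild-type IP hearts.

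Rab4a is a small GTPase that returns cargo from early endosomes to the cell surface. It read 235.5, 200.6 and 236.6 units on the knockout IP arrays and 697.5, 618 and 838 units on the wild-type IP arrays. The difference was 3.04-fold (−1.60 ± 0.14, adjusted p = 7.15e-05), and −1.67 in control hearts (adjusted p = 4.29e-05). A second probe set read 113 to 190 against 441 to 499 units in knockout and wild-type IP hearts, while a dim one, at 1.4 to 30.0 units over both groups, overlapped. The RIKEN transcript 2610507I01Rik read 52.6, 18.4 and 23.4 units in knockout and 239.1, 294.7 and 353.8 units in wild-type IP hearts (−2.77 ± 0.31, adjusted p = 0.000717), and its control difference was −3.02 (adjusted p = 0.000238). Mrpl55, a protein of the large subunit of the mitochondrial ribosome, read 3014, 2683 and 2434 units in knockout and 3862, 4469 and 3988 units in wild-type IP hearts. It was 1.51-fold lower in the knockout (−0.60 ± 0.10, adjusted p = 0.0255), and in control hearts its difference was −0.79 (adjusted p = 0.00191). For these 5 genes the difference between IP and control hearts in the genotype difference was between −0.47 and 0.25, with adjusted p-values between 0.598 and 0.96.

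The other 11 genes passed in IP hearts and did not pass in control hearts. None of them passed the test of whether the genotype difference itself differed between IP and control hearts: by limma 0 of 14044 genes (0.0%) passed that test, and 1105 (7.87%) had an unadjusted p under 0.05. In control hearts 926 genes (6.59%) had an unadjusted p under 0.05. Over all genes with values on all arrays, 88 of 13192 (0.667%) had knockout and wild-type arrays apart in opposite directions in IP and control hearts. Among the 11 genes the adjusted p of that test was lowest, 0.325, for Tmx1, Sugp1, Nnt and Klhdc3. Ramp1 encodes an accessory protein that turns the calcitonin receptor-like receptor into the receptor for CGRP, which also signals through cAMP. It read 460.8, 620.8 and 394.2 units in knockout and 1167, 962 and 1172 units in wild-type IP hearts, a 2.23-fold difference (−1.16 ± 0.16, adjusted p = 0.00978). The control arrays lay near the knockout IP arrays, at 494.3, 459.1 and 403.4 units in the knockout and 537.3 and 576.2 units on the 2 wild-type arrays that had a value. Its difference in control hearts was −0.29 (adjusted p = 0.834). A second, dimmer probe set of Ramp1 read 51.2 to 78.1 against 70.5 to 164.3 units in knockout and wild-type IP hearts and overlapped (−0.68 ± 0.39). When the probe sets of Ramp1 were averaged, its adjusted p in IP hearts was 0.433.

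Tmx1, a thioredoxin-like oxidoreductase of the endoplasmic reticulum membrane, read 4442, 4831 and 4746 units in knockout and 7334, 8466 and 7769 units in wild-type IP hearts (−0.75 ± 0.09, adjusted p = 0.00227). The 6 control arrays lay between these groups, from 5246 to 6673 units, and the control difference was 0.01. A second probe set of Tmx1 read 3672 to 3878 against 5151 to 6537 units in IP hearts. Klhdc3, a substrate receptor of cullin ubiquitin ligases, read 4167, 4300 and 4105 units in knockout and 5623, 6033 and 5865 units in wild-type IP hearts (−0.48 ± 0.07, adjusted p = 0.0109). The control arrays lay around the level of the knockout IP arrays, from 3928 to 4422 units. A second probe set of Klhdc3 read 2904 to 3271 against 4261 to 4559 units in knockout and wild-type IP hearts. Another read 1637 to 1959 against 2168 to 2345 units, and a dim one, at 149.3 to 219.2 against 107.2 to 286.7 units, overlapped. When the probe sets of Klhdc3 were averaged, its adjusted p in IP hearts was 0.243. Sugp1, a G-patch protein of the splicing machinery, read 696.6, 742.8 and 747.2 units in knockout and 1028, 1176 and 1168 units in wild-type IP hearts (−0.61 ± 0.10, adjusted p = 0.042).

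Nnt encodes the transhydrogenase of the inner mitochondrial membrane, which makes NADPH, and is known for a deletion in the C57BL/6J substrain. Its signal was 21799, 22562 and 22596 units in knockout and 31583, 30828 and 33005 units in wild-type IP hearts, 1.42-fold lower in the knockout (−0.51 ± 0.07, adjusted p = 0.0105). A second bright probe set read 13096 to 14218 against 17492 to 19084 units in the same hearts, and a dim set, at 45.0 units or less, overlapped. Both genotypes had bright signals in control hearts, from 23279 to 29104 units in the knockout and from 24953 to 26107 units in wild type. The sources used here do not say whether these probe sets lie in the deleted exons. Mylk3, the cardiac myosin light chain kinase, read 6175, 7306 and 6478 units in knockout and 9573, 8949 and 10072 units in wild-type IP hearts (−0.52 ± 0.09, adjusted p = 0.0494). Tmem250-ps, a pseudogene by its name, read 490.8, 649.5 and 507.9 against 1328, 1061 and 1399 units (−1.18 ± 0.21, adjusted p = 0.0485), and whether its probe set also reads its parent gene was not tested.

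Of the 4 genes that were higher in knockout IP hearts, Myot, which encodes the Z-disc protein myotilin, had the largest difference. It read 4367, 4450 and 4348 units in knockout and 1708, 2490 and 2084 units in wild-type IP hearts, 2.11-fold higher in the knockout (1.08 ± 0.19, adjusted p = 0.0485). Wild-type control arrays ranged widely, from 2144 to 4191 units. Mal, a membrane protein of apical transport and myelin, read 1260, 985.3 and 931.3 units in knockout and 590.3, 589.7 and 600.5 units in wild-type IP hearts (0.81 ± 0.13, adjusted p = 0.0255). At this probe set the wild-type IP arrays lay below all other arrays, since the control arrays read 966 to 1253 units. A second probe set of Mal read 441.8 to 546.4 against 288.3 to 378.9 units in knockout and wild-type IP hearts (0.50 ± 0.21). Control arrays read 297.7 to 596.4 units there and overlapped the wild-type IP arrays. When the probe sets of Mal were averaged, its adjusted p in IP hearts was 0.155. Tvp23b, a membrane protein of the Golgi, read 1387, 1417 and 1213 units in knockout and 773.8, 932.6 and 945.9 units in wild-type IP hearts (0.59 ± 0.11, adjusted p = 0.0485), with a control difference of 0.29 (adjusted p = 0.667).

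Lgals9 encodes galectin-9, a secreted lectin that binds beta-galactosides and acts on T cells and macrophages. It read 1738, 1391 and 1413 units on the knockout IP arrays and 923, 1019 and 935 units on the wild-type IP arrays, 1.56-fold higher in the knockout (0.64 ± 0.11, adjusted p = 0.0485). All 6 control arrays lay in between, from 1060 to 1325 units, and the control difference was −0.01. The 12 arrays were also compared at the brightest probe set of each gene. The wild-type IP group stood above every other array in Ramp1, Tmx1, Sugp1, Nnt and Klhdc3, and below every other array in Mal, Tvp23b and Lgals9. Over all genes 343 (2.44%) had the wild-type IP arrays above all others and 388 (2.76%) below. The knockout IP group stood above every other array in Myot and Lgals9 and below every other array in Mylk3, Nnt, Sugp1 and Tmx1, against 143 (1.02%) and 434 (3.09%) of all genes.

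**Figure D2:**
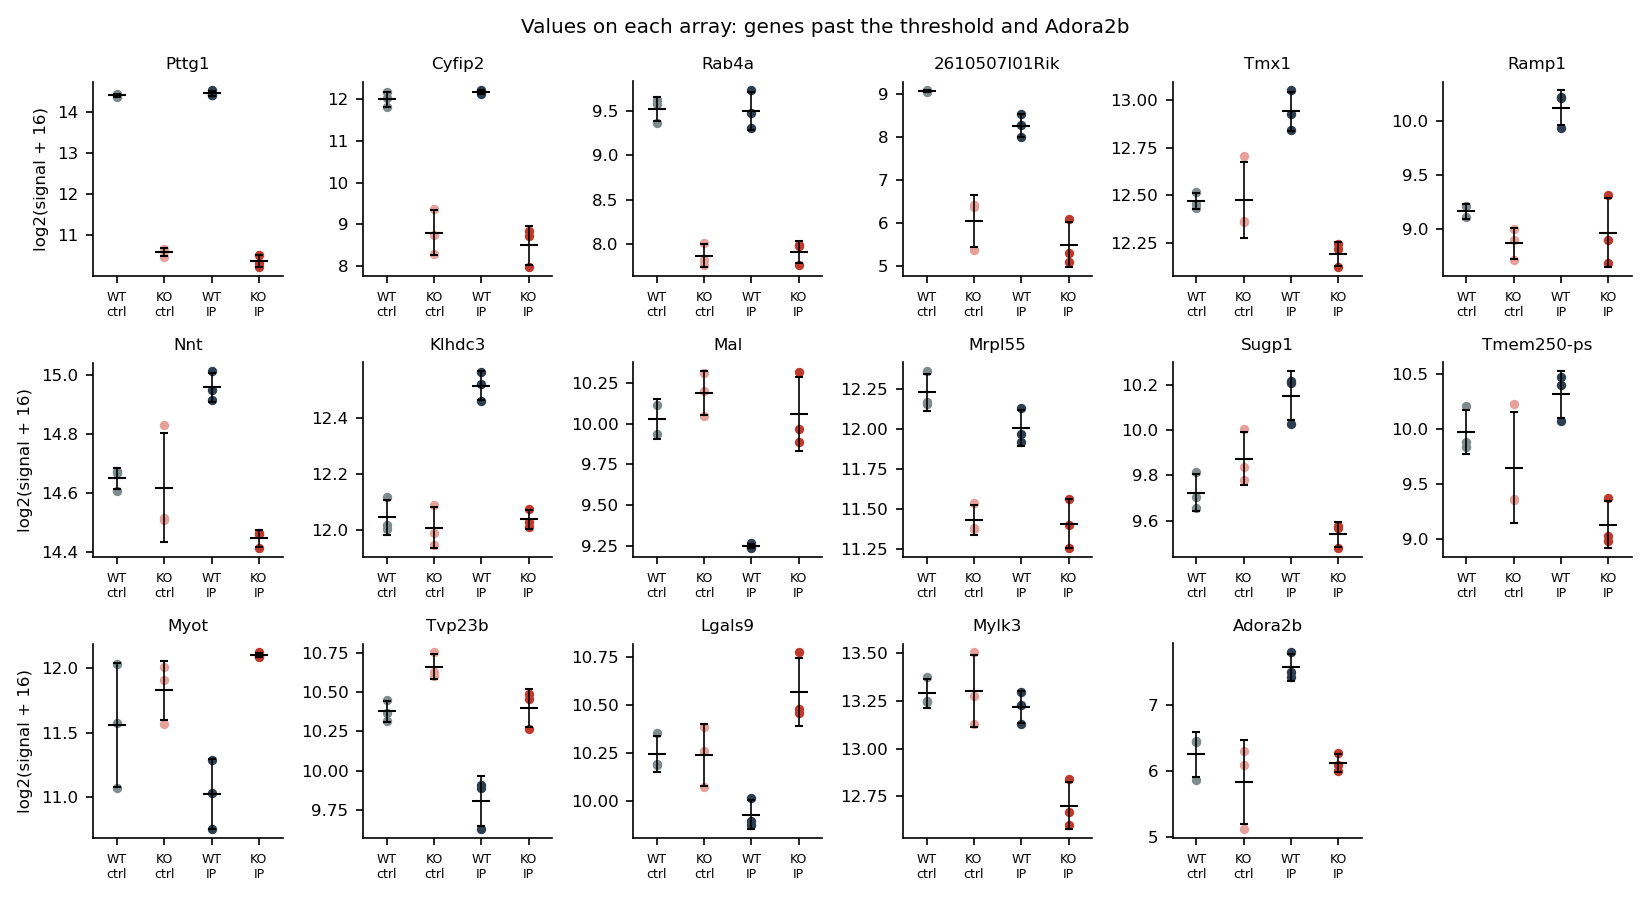
Values on each array (points, log2(signal + 16)) for the 16 genes past the threshold and for Adora2b, in wild-type (WT) and knockout (KO) control and IP hearts. Dashes are means and bars are SDs over the 3 arrays of a group (2 wild-type control arrays for Mal and Ramp1). Pttg1, Cyfip2, Rab4a, 2610507I01Rik and Mrpl55 are lower in the knockout in both treatments, and each panel has its own scale.

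The calls differed in how well they held under 26 alternatives of the processing. Pttg1, Cyfip2 and Rab4a passed in 26 of 26, 2610507I01Rik in 25 and Tmx1 in 24. Ramp1 passed in 19, Nnt in 18 and Klhdc3, Mal and Mrpl55 in 17. Sugp1 passed in 14, Lgals9 and Tmem250-ps in 13, Mylk3 in 10 and Myot and Tvp23b in 8. Without the third wild-type IP array 5 genes passed, and without the first or the second knockout IP array 6 did. With the beta-actin ratio as a covariate the difference was −0.55 for Tmx1 (adjusted p = 0.305), −1.14 for Ramp1 (adjusted p = 0.305) and 0.59 for Lgals9 (adjusted p = 0.464). It was smaller by more than 1.5 times for Tmem250-ps, at −0.46 (adjusted p = 0.614), for Mylk3, at −0.29 (adjusted p = 0.606), and for Nnt, at −0.33 (adjusted p = 0.425).

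Adora2b, the gene targeted in the knockout, read 52.3, 61.5 and 47.7 units on the knockout IP arrays and 206.9, 164.6 and 155.5 units on the wild-type IP arrays at its brightest probe set. The groups did not overlap, and the difference was 2.73-fold (−1.45 ± 0.33), but it did not pass (adjusted p = 0.0958). In control hearts the arrays overlapped, at 18.6, 52.0 and 62.6 units in the knockout and 42.1, 71.1 and 72.0 units in wild type (−0.42). The other 3 probe sets read 1.9 to 26.8 against 31.8 to 86.7 units, 14.8 to 36.4 against 49.1 to 55.7 units, and 10.3 to 40.7 against 97.6 to 141.2 units, each without overlap between the IP groups. The sources used here do not say which of these probe sets, if any, the deletion removes, so that they are no full check of the genotype. The other adenosine receptors gave values with overlapping arrays: Adora1 differed by −0.33 ± 0.28 (adjusted p = 0.673) and Adora2a by 0.23 ± 0.26 (adjusted p = 0.772), and Adora3 was below the filter on low values. Of the 14 tested genes of the adenosine pathway 0 passed, and 1, Adora2b itself, had an unadjusted p under 0.05, against 0.114% and 12.7% of all genes.

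Several of the genes lie on chromosome 11, which also carries Adora2b. The authors' table places Adora2b on chromosome 11 from 62065179 to 62082647, in a genome build that the sources used here do not name. Pttg1 lies 18.80 Mb before it (43263687 to 43269404) and Cyfip2 16.03 Mb before it (46037281 to 46155773). Mrpl55 lies 3.046 Mb before Adora2b (59018712 to 59022197), Tvp23b 0.63 Mb after its start (62695685 to 62711379) and Lgals9 16.7 Mb after it (78779590 to 78801026). Within 10 Mb of Adora2b 2 of 230 tested genes passed (0.87%), Mrpl55 and Tvp23b. A window of 20 Mb just encloses Pttg1, so that the counts of calls on either side of its edge are no test. It holds all 5 genes of chromosome 11 that passed, out of 420 tested there (1.19%). Farther away on the chromosome 0 of 647 tested genes passed. On the other chromosomes 10 of 11488 genes passed (0.087%). The transcript 2610507I01Rik has no position and is in none of these counts. At an unadjusted p under 0.05, 46 of the 230 genes within 10 Mb differed, and the share was 19.3% within 20 Mb of Adora2b, 13.4% on the rest of chromosome 11 and 12.6% on the other chromosomes. In control hearts the 3 called genes with a position on chromosome 11, Pttg1, Cyfip2 and Mrpl55, were within 20 Mb, and the unadjusted shares there were 12.2% within 10 Mb, 10.7% within 20 Mb, 6.03% on the rest of the chromosome and 6.24% on the others. Rab4a lies on chromosome 8 from 126692115 to 126721377.

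**Figure D3:**
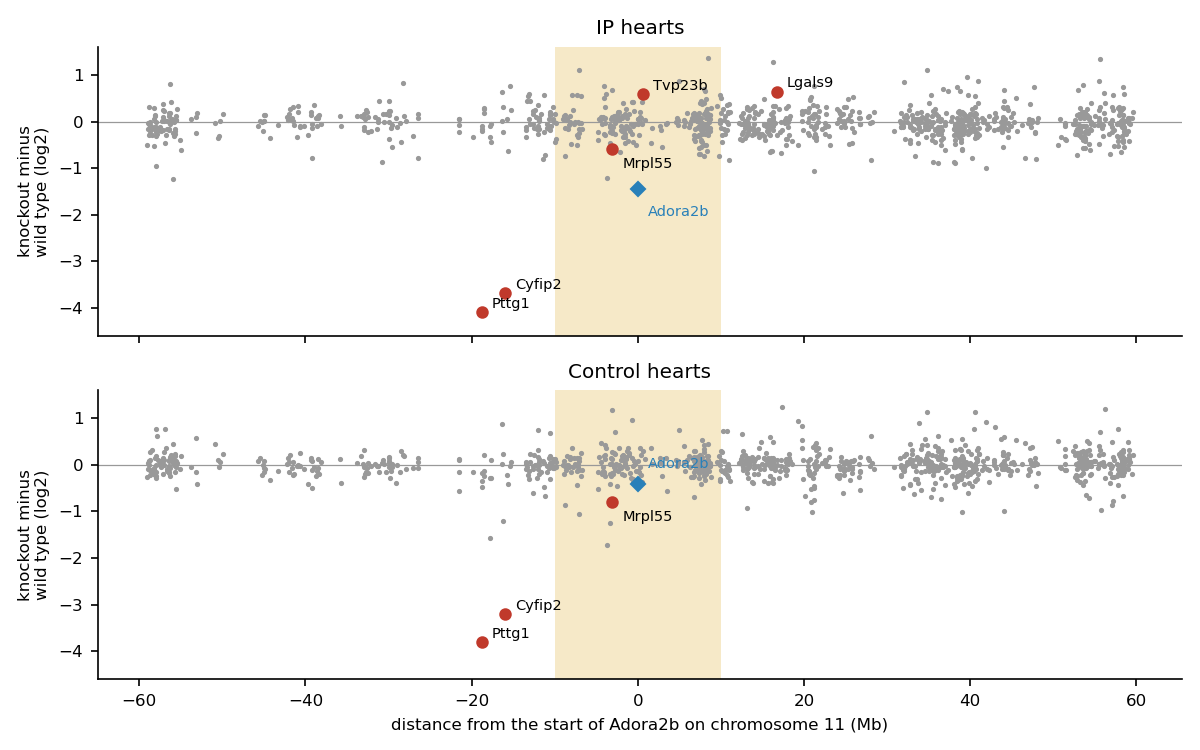
Genotype difference (y axis, log2) of the genes of chromosome 11 by distance from the start of Adora2b (x axis, Mb), in IP hearts (top) and control hearts (bottom). Red points passed the threshold, the diamond is Adora2b, and the shaded band spans 10 Mb on each side. Pttg1 and Cyfip2 are the lowest points in both panels.

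None of the 31 gene lists, which cover pathways and cell types, held a gene past the threshold, so that their members are given by values. In the interferon response list all 19 tested genes had a difference above 0, between 0.05 and 1.09, with a median of 0.44. The median over all genes was −0.03, and that of the same list was 0.45 with quantile normalization and −0.08 in control hearts. Of the 19 genes 7 had an unadjusted p under 0.05 with a higher knockout value, against 5.04% of all genes. The first knockout IP array was the highest in each of these 7 genes, and the list's median was 0.23 without it. With the beta-actin ratio as a covariate the median was 0.75.

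Ifit2, which binds RNA and blocks viral translation, read 1484, 803 and 639 units in knockout and 343, 535 and 409 units in wild-type IP hearts (1.09 ± 0.27, unadjusted p = 0.00124, adjusted p = 0.124). Its arrays did not overlap, although the first knockout array was well above the other 2. Rsad2, the antiviral enzyme viperin, read 4169, 2457 and 2166 units in knockout and 1563, 1869 and 1564 units in wild-type IP hearts (0.75 ± 0.21, adjusted p = 0.15). Ifit1, which recognizes foreign RNA caps, read 1940, 888 and 651 units in knockout and 572, 524 and 524 units in wild-type IP hearts (0.93 ± 0.30, adjusted p = 0.213). Its relative Ifit3 read 1597, 702 and 699.8 against 604.5, 572.8 and 489.3 units (0.72 ± 0.32, adjusted p = 0.367). Usp18, which removes ISG15 and dampens interferon signaling, gave 0.70 ± 0.26 (adjusted p = 0.261), and Xaf1, a pro-apoptotic interferon target, gave 0.50 ± 0.17 (adjusted p = 0.229). The chemokine Cxcl10 read 573, 567 and 371 units in knockout and 303, 344 and 313 units in wild-type IP hearts (0.61 ± 0.22, adjusted p = 0.261). Its difference in control hearts was 0.55, where its knockout arrays were also all above the wild-type arrays, as knockout and wild-type arrays did not overlap there for 11.5% of genes.

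The interferon-stimulated response element is the DNA motif through which interferon-activated STAT and IRF factors bind promoters. Its core was searched as GAAA, any 2 bases and GAAA, on both strands and with overlapping matches counted, in RefSeq promoter windows of 300 bases around a gene's start (build GRCm38.p6). Windows were found for 16 of the 19 genes of the list, and 9 of the 16 held a match (56.2%), against 3.99% of all genes with windows. The list was drawn up from known interferon targets, so that its high share is no finding of these data. Among the 16 genes past the threshold 12 had windows, and 1 of the 12, Lgals9, held a match (8.33%, against 3.99% of all genes). A single match among 12 genes is no result about these genes. A match is a description and does not show that a factor binds. The windows of Lgals9 and of the list members with an unadjusted p under 0.05 that held a match are printed 5′ to 3′, with the matches in capitals, to show where the motif stands in them. The windows of Ifit2, which had the largest difference of the list, and of Xaf1 held no match.
Lgals9, chr11:78984875-78985174, minus strand: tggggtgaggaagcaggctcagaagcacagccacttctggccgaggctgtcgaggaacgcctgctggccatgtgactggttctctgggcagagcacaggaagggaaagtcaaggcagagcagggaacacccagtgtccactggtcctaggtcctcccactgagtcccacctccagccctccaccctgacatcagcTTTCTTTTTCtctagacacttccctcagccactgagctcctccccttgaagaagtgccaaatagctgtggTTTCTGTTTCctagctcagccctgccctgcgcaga
Ifit1, chr19:34640639-34640938, plus strand: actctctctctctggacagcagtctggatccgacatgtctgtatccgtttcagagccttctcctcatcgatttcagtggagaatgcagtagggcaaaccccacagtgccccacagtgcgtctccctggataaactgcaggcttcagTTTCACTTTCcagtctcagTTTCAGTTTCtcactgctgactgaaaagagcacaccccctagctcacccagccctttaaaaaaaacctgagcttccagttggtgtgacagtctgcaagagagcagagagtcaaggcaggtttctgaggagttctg
Ifit3, chr19:34583279-34583578, plus strand: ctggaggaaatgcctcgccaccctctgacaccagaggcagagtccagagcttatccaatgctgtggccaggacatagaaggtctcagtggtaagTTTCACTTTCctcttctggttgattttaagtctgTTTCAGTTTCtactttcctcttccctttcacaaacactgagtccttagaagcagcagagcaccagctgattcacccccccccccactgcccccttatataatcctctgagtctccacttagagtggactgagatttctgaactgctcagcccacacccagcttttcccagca
Rsad2, chr12:26456403-26456702, minus strand: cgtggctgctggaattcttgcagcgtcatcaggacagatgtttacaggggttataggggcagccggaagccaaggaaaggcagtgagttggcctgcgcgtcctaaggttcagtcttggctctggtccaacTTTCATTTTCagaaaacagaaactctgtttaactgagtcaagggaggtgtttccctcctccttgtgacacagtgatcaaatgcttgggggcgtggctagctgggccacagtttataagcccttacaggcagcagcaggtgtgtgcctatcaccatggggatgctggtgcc
Cxcl10, chr5:92348840-92349139, minus strand: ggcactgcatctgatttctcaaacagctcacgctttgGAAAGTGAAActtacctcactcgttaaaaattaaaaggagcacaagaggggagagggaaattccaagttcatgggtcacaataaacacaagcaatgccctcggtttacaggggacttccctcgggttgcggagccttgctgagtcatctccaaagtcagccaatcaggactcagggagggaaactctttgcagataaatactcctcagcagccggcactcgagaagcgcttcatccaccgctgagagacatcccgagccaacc
Lgals9, Ifit1 and Ifit3 held 2 matches each, and Rsad2 and Cxcl10 held 1 each. The cAMP response element TGACGTCA was found in 0 of the 12 genes past the threshold that had windows and in 2.03% of all genes, and the E-box CACGTG in 0 of the 12 and in 8.09% of all genes.

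Genes of antigen presentation by the major histocompatibility complex gave a median of 0.25 in IP hearts, with 10 of 12 members above 0 (0.09 in control hearts). H2-Eb1, a class II chain, read 1653, 2330 and 2234 units in knockout and 1196, 1755 and 1194 units in wild-type IP hearts (0.59 ± 0.16, adjusted p = 0.153), and its groups overlapped. Cytokines, chemokines and adhesion molecules gave a median of 0.05, with 17 of 32 members above 0. Vcam1, the endothelial adhesion molecule for leukocytes, read 3252, 1654 and 1619 units in knockout and 1294, 1320 and 935 units in wild-type IP hearts (0.81 ± 0.27, adjusted p = 0.227).

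The circadian clock list had a negative median in IP hearts, −0.27 over 21 genes, and a positive one in control hearts, 0.27. With quantile normalization the IP median was −0.28. Without the third wild-type IP array, which was the highest in several members, it was −0.12, and when the probe sets of a gene were averaged it was −0.13. With the beta-actin ratio as a covariate it was −0.48. Of the 21 genes 5 had an unadjusted p under 0.05 with a lower and 2 with a higher knockout value, against 7.7% and 5.04% of all genes. The labels give no time of day at which the hearts were taken.

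Hlf, a PAR-domain factor, read 411.4, 413.8 and 456.9 units in knockout and 656, 615 and 1106 units in wild-type IP hearts (−0.82 ± 0.23, unadjusted p = 0.00268, adjusted p = 0.149). In control hearts its difference was 0.61. Tef, its relative, read 1182, 1326 and 1630 units in knockout and 2026, 1889 and 3089 units in wild-type IP hearts (−0.73 ± 0.23, adjusted p = 0.2). Dbp, the third member of this family, read 807, 1048 and 2684 against 2476, 2510 and 11670 units (−1.65 ± 0.62, adjusted p = 0.283). Its IP arrays overlapped, and the third array of each group was the highest. The repressor Per2 read 107, 148.3 and 230.5 units in knockout and 224, 309 and 726 units in wild-type IP hearts (−1.18 ± 0.60, adjusted p = 0.437), with overlap between the groups. In control hearts Per2 read 315, 579 and 62.3 units in the knockout and 87.3 and 35.6 units on 2 wild-type arrays (1.77 ± 0.67, adjusted p = 0.683). Per1, a clock repressor and cAMP target, read 579.6, 669.8 and 643.6 units in knockout and 780.7, 805.9 and 946.9 units in wild-type IP hearts (−0.41 ± 0.16, adjusted p = 0.31), without overlap. The activator Clock gave 0.32 ± 0.14 in IP hearts (adjusted p = 0.367) and −0.52 in control hearts, and its IP value turned to −0.01296 when its probe sets were averaged.

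**Figure D4:**
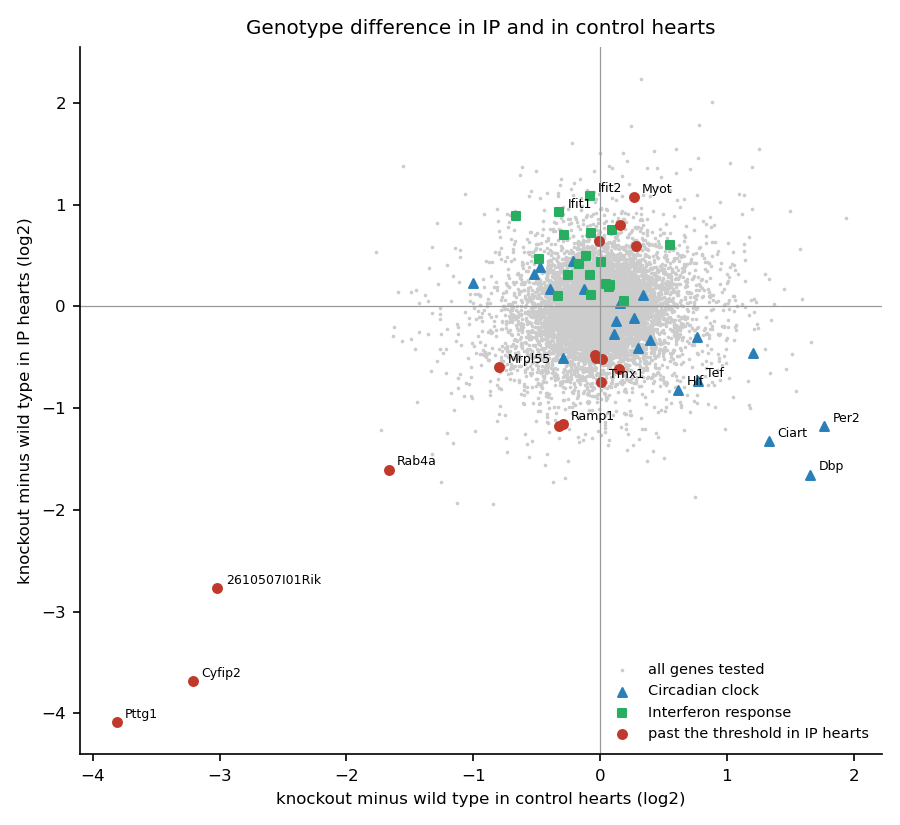
Genotype difference in IP hearts (y axis, log2) against that in control hearts (x axis, log2) for 14044 genes (grey), the 16 genes past the threshold in IP hearts (red), the clock list (triangles) and the interferon list (squares). Pttg1, Cyfip2, 2610507I01Rik and Rab4a lie at the lower left, and Per2, Dbp and Ciart at the lower right.

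Across the 14044 genes the genotype difference in IP hearts and that in control hearts, which share no array, had a Pearson correlation of 0.131 and a Spearman correlation of 0.0959 across genes, which are not independent replicates. The difference had the same sign in both for 53.1% of all genes and for 12 of the 16 genes past the threshold.

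Genes known to respond to cAMP had a median of −0.12 over 13 tested members, of which 4 had an unadjusted p under 0.05 with a lower and 1 with a higher knockout value, against 7.7% and 5.04% of all genes. With the beta-actin ratio as a covariate the sign of this median turned, to 0.09. Ppargc1a, a coactivator of mitochondrial genes, read 8687, 8306 and 6711 units in knockout and 10860, 10820 and 8802 units in wild-type IP hearts (−0.36 ± 0.12, adjusted p = 0.223), with no overlap. Immediate-early genes, whose transcription needs no new protein, gave a median of −0.02 over 31 members, and 0.25 with that covariate. Among them Jund, a member of the AP-1 family, gave −0.44 ± 0.13 (adjusted p = 0.189) in IP hearts and 0.42 in control hearts. The neutrophil list had a median of −0.42 over 13 markers, of which 9 were below 0, and this median also turned with the covariate, to 0.41. The summed signal of its markers ranged from 11090 to 22380 units in knockout and from 12430 to 30480 units in wild-type IP hearts, which overlap. Trem1, a receptor that amplifies inflammation, gave −1.04 ± 0.38 (adjusted p = 0.271), while the granule protein Ngp, which has the smallest p of the list, gave 1.33 ± 0.39 (adjusted p = 0.171). Monocyte and macrophage markers gave a median of 0.00 over 17 genes, and 0.32 with the covariate.

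Genes of the contractile and energy-producing machinery lay slightly below 0 without normalization between arrays, in the direction of the total signals given above. Of 20 cardiomyocyte markers 19 were below 0, with a median of −0.20, and 14 had an unadjusted p under 0.05 with a lower value, against 7.7% of all genes. With quantile normalization the median was 0.00 and the number with a lower value at that threshold was 0, against 6.54% of all genes. The summed signal of 17 of these markers was 642700 to 683500 units in knockout and 741700 to 754900 units in wild-type IP hearts, without overlap. In control hearts it was 646100 to 696500 units in the knockout and 637700 to 687400 units in wild type. The wild-type IP arrays thus lay above all others, and the knockout IP arrays lay in the range of the control arrays. In bulk tissue a change in the number of cells of a type and in RNA per cell cannot be told apart. Atp2a2, the calcium pump of the sarcoplasmic reticulum, gave −0.29 ± 0.06 (adjusted p = 0.08) and −0.08 with quantile normalization, and Ckm, the muscle creatine kinase, gave −0.14 ± 0.06 and 0.06. The tricarboxylic acid cycle and respiratory chain list had a median of −0.15, and 0.00 with quantile normalization, with Cox4i1, a subunit of cytochrome c oxidase, at −0.21 ± 0.05 (adjusted p = 0.104) and 0.00. Fatty acid oxidation genes gave −0.11 and 0.02. In that list Cpt1a, which admits fatty acids to mitochondria, kept its value, at −0.47 ± 0.13 (adjusted p = 0.138) and −0.47. The hypoxia list had a median of 0.01, with 11 of 21 members above 0. Its member with the smallest p, Epas1, which encodes HIF-2 alpha, gave −0.23 ± 0.05 (adjusted p = 0.112) and −0.18. Of the 21 members 4 had an unadjusted limma p under 0.05 with a lower and 2 with a higher knockout value, against 7.7% and 5.04% of all genes. Egln3 of the same list gave 0.65 ± 0.17 (adjusted p = 0.133) and 0.62. In the other direction, Ankrd37 gave −1.25 ± 0.41 (adjusted p = 0.211) and −1.19, and Hmox1 gave −1.73 ± 0.48 (adjusted p = 0.149) and −1.74. In the list of heat shock chaperones, with a median of −0.03, Hspb7 gave −0.27 ± 0.05 (adjusted p = 0.08) and −0.09.

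The endothelial list had a median of 0.11, and 5 of its 16 markers had an unadjusted p under 0.05 with a higher knockout value, against 5.04% of all genes. Of the 16 markers 6 lay below 0, among them the junction protein Cdh5 at −0.20 (adjusted p = 0.79) and the clotting protein Vwf at −0.15 (adjusted p = 0.771). The summed signal of 14 endothelial markers was 21080 to 24080 units in knockout and 19640 to 20990 units in wild-type IP hearts. In control hearts it was higher for most arrays, at 23450 to 31280 units in the knockout and 26540 to 32320 units in wild type. Pcdh12, a protocadherin of endothelial junctions, read 322.8, 186.9 and 128.7 units in knockout and 74.4, 73.4 and 27.7 units in wild-type IP hearts (1.61 ± 0.32, adjusted p = 0.0736), with no overlap. In control hearts it read 377 to 542 units in the knockout and 406 to 680 units in wild type (−0.22). Emcn, the endothelial sialomucin endomucin, gave 0.40 ± 0.12 (adjusted p = 0.189), and Aplnr, the apelin receptor, gave 0.86 ± 0.33 (adjusted p = 0.294). Pecam1 gave 0.32 ± 0.11 at its brightest probe set (adjusted p = 0.246) and −0.28 with the mean of its probe sets. Of the other cell types, fibroblast markers had a median of 0.03, with the matrix protein Postn at 0.58 ± 0.16 (adjusted p = 0.158), and mural cell markers had a median of −0.23. The summed signal of 10 mural markers was 39460 to 41590 units in knockout and 45290 to 46790 units in wild-type IP hearts, without overlap. In control hearts it was 41320 to 44230 units in the knockout and 41460 to 44120 units in wild type. Des holds a large part of this sum. It read 15050, 14650 and 17450 units in knockout and 20510, 16290 and 20090 units in wild-type IP hearts, with overlap. The part of cell content in any gene's difference was not tested.

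**Figure D5:**
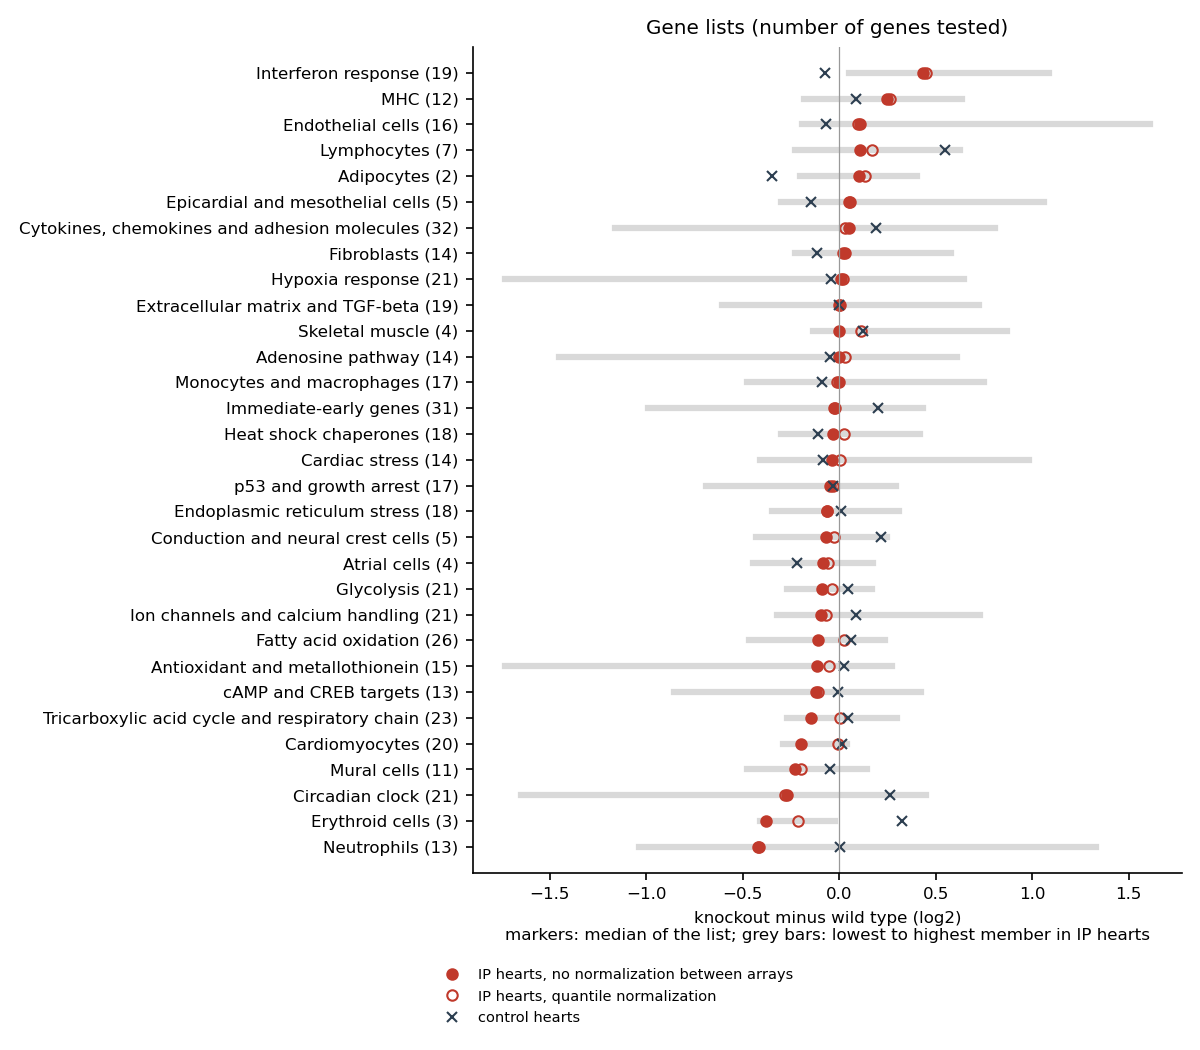
Median genotype difference (x axis, log2) of each of 31 gene lists in IP hearts without normalization between arrays (filled circles) and with quantile normalization (open circles), and in control hearts (crosses). Grey bars run from the lowest to the highest member in IP hearts. The interferon list is the highest at 0.44, and the cardiomyocyte list moves from −0.20 to 0.00 with quantile normalization.

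The authors' deposited table gives a decision other than 0 in this comparison for 1743 of 45101 probe sets (3.86%), and the authors' list of those with at least a 2-fold difference holds 73 (0.162%), of which 46 are higher and 27 lower in the knockout. In the deposited table, 16 of the 73 probe sets also have at least a 2-fold difference and a decision in control hearts, where 38 probe sets (0.0843%) do. The 73 probe sets had the same sign in the fit on all probe sets used here, and 70 had an unadjusted p under 0.05 there. Of the 58 genes they name, 6 passed here, and 31 had an unadjusted p under 0.05 at their brightest probe set. The sign of that brightest probe set matched the listed probe set for 29 of 41 higher and 23 of 25 lower ones. All 16 genes past the threshold here have the same sign in the authors' deposited table, and 15 have a decision other than 0 there. That table was made for the same groups of this study, so that these matches are no independent check.

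Several genes at the ends of the authors' deposited list, chosen after their values were seen, did not pass here. Hmox1, which degrades heme, read 122, 143 and 323 units in knockout and 912, 330.4 and 825 units in wild-type IP hearts (−1.73 ± 0.48, adjusted p = 0.149), with a narrow gap between the third knockout and the second wild-type array. Chil3, a chitinase-like protein of macrophages and neutrophils, read 101, 67.7 and 655 against 779, 616 and 725 units (−1.94 ± 0.69, adjusted p = 0.246). Wdfy1, an endosomal protein, gave −1.45 ± 0.40 in IP hearts (adjusted p = 0.153) and −1.32 in control hearts. Bdh1, the mitochondrial enzyme that interconverts the ketone bodies, read 7160, 6089 and 5211 units in knockout and 1400, 3340 and 2698 units in wild-type IP hearts (1.38 ± 0.27, adjusted p = 0.071). Ide, the insulin-degrading enzyme, read 3388, 3660 and 4594 units in knockout and 2404, 2498 and 2570 units in wild-type IP hearts (0.62 ± 0.14, adjusted p = 0.0913), and its control difference was 0.83 (adjusted p = 0.0667). At this probe set, the brightest of Ide, the knockout arrays were above all wild-type arrays in both treatments. The authors' list holds another probe set of Ide, with a log2 difference of 1.668. For the brightest one the authors' deposited table gives 0.6482.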

How the data were processed

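Mouse heart RNA was hybridized to 12 Affymetrix arrays, and the groups were taken from the labels. The deposited value table holds a linear signal intensity per probe set, for which the submitters' processing notes name MAS5, with a scaling target that they do not state. A second table that the authors deposited holds log2 differences, F scores, p-values and decision scores per the file headers.

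The third wild-type control array has a run of 1425 signals of 0 (median 639 on the other arrays), which was set as missing. Signals were transformed to log2(signal + 16). Without the 64 Affymetrix controls, probe sets above the 40th percentile of the mean (27022) and with exactly 1 symbol were kept, and the brightest represented each gene, giving 14044 genes (852 without the third wild-type control array). Symbols were updated through RefSeq. Group means were estimated from the 12 arrays together by limma 3.58.1 under R 4.3.3 (8 residual degrees of freedom, empirical Bayes with an intensity trend, two-sided). The scripts were tested on simulated data. The number of arrays limits the precision. Pairing by replicate number was checked, and the arrays were treated as unpaired.

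Named genes are those past the threshold without overlap of their IP arrays (up to 12 in each direction, RIKEN and clone names passed over), the member of each list with the smallest p, genes past the threshold within 10 Mb of Adora2b, the adenosine receptors, Per1, Per2, and the 5 genes with the smallest p for the difference between treatments. 2610507I01Rik, members of the interferon, clock, endothelial, hypoxia and neutrophil lists and genes of the authors' list were added after their values were seen. Not every gene the rule gives is described. The comparison, the gene lists and the rule were chosen with earlier results of these data known. The alternatives, given at the end, were offsets, scalings, filters, variance models, probe set means, array subsets, the replicate block, the zeros and an RNA ratio as covariate.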

Additional observations from a re-analysis of the deposited data

Results flagged for a closer look

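In 5 of the 78 named genes all 3 knockout arrays lay on one side of the wild-type arrays in IP hearts and on the opposite side in control hearts, as in 88 of 13192 genes (0.667%) with values on all arrays. Parn, Hmgb1 and Rflnb were named for the small p of that very difference, so that the count of 5 is no result. The genotype difference in IP hearts minus that in control hearts was −1.50 for Tef, −0.94 for Parn, which removes poly(A) tails, −0.67 for Hmgb1, a chromatin protein released from damaged cells, 0.84 for Clock and 0.66 for Rflnb, an actin cross-linking regulator. The limma test of that difference did not pass for any of the 5, with adjusted p-values of 0.325 for Tef, Parn, Hmgb1 and Rflnb and 0.338 for Clock.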

How the results depend on the processing

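The count of genes that passed in IP hearts, 16, was between 11 and 23 with offsets of 1 and 64, quantile normalization, median centring, no filter, a stricter filter, robust moderation and averaged probe sets. It was 4 without an intensity trend, 45 with array weights, 74 with the 6 IP arrays alone, 6 with the zeros kept as signals and 3 with the beta-actin ratio as a covariate. Leaving out 1 array gave counts from 5 to 39, with 39 without the third wild-type control array and 26 without the third knockout control array. The count in control hearts, 5, was 8 with an offset of 64 and between 5 and 9 without 1 array. The count for the difference between treatments, 0, was 2 with the beta-actin ratio and could not be computed from 6 arrays. Deviations of replicates with the same number had correlations across genes from 0.0117 to 0.0761 in IP hearts and from −0.0558 to −0.00375 in control hearts. Between different numbers the correlations were from −0.0739 to 0.0502 in IP hearts and from −0.0528 to 0.0729 in control hearts. Not every array correlated best with its own number. Whether IP replicates with the same number share a source of spread was not tested. With the replicate block 50 genes passed in IP hearts, 13 in control hearts and 4 for the difference. Among named genes the sign turned for Ckm with quantile normalization (0.0591), for Clock (−0.01296) and Pecam1 (−0.280) with averaged probe sets, and with the beta-actin ratio for Csnk1d (0.02046) and Ecpas (−0.006697). The cause was not tested. Of 2022 values of 78 named genes under the alternatives, 1852 kept their direction and side of the threshold, 135 lost the call and 30 gained one. Only the 16 genes past the threshold could lose a call, so that all 135 losses fall on them. The other named genes had no call to lose, and the 1852 are no measure of how stable the calls were. Of 806 list medians, 31 moved by more than the spread between replicates. The number of arrays, 3 per group, limits what can be detected.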
